A study of Bos taurus with 34 samples.

Results

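miR-22 was followed in cell-free blood miRNA of dairy cows through 3 of the 800 mature names in the count files, bta-miR-22-3p, bta-miR-22-5p and bta-miR-3600. The names were taken by miRNA name, and bta-miR-3600 was selected on its measured counts, which were nearly those of bta-miR-22-3p in every library. The near-equality of those counts is therefore given as a description, with no test. All 3 names passed the filter on low counts in every comparison.

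The libraries came from cows with subclinical endometritis (SCE), in which the lining of the uterus is inflamed but no outward sign is seen, and from healthy cows, classed by cytology and biopsy of the endometrium. They numbered 11 from SCE cows at day 45, 11 from SCE cows at day 25, 6 from healthy cows at day 45 and 5 from healthy cows at day 25, with 1 library per cow and day. The labels give days 25 and 45 and call the material blood serum, whereas the design text of the series has plasma, taken 21 and 44 days after calving. No treatment, age or breed is named. The day-25 file of healthy cow 3 held the same count as its day-45 file for 800 of 800 names and was left out. The question put to the data was whether circulating miRNAs tell the statuses apart.

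Total counts ranged from 678389 to 19747294 in SCE libraries and from 7398849 to 28872153 in healthy libraries. Both libraries of SCE cow 10 were the shallowest, at 1343401 counts at day 25 and 678389 at day 45. Markers of blood cells were present in all groups, and every marker listed had counts. The 12 red blood cell miRNAs together took 6.18 to 80.9% of counts in SCE cows (median 14.6%) and 26.4 to 84.0% in healthy cows (median 48.8%) at day 25. At day 45 they took 6.47 to 58.7% in SCE cows (median 40.0%) and 17.4 to 74.8% in healthy cows (median 50.4%). In such bulk samples, fewer contributing cells of a type and less RNA per cell cannot be told apart.

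A miRNA hairpin is cut by Dicer into a 5p and a 3p arm, and the arm kept by an Argonaute protein guides the repression of messenger RNAs that pair with its seed. In human and mouse, miR-22-3p is the arm kept in most cells and is expressed in many tissues, among them heart, muscle and blood-forming cells. The 5p arm is the minor product of the same hairpin. RefSeq lists both hairpins in cattle under the symbols MIR22 and MIR3600. On its cattle assembly the whole MIR3600 interval lies inside the MIR22 interval, and both lie within the span of TLCD2, a gene for a membrane protein.

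Summed over the 33 libraries, miR-3600 had 18927972 counts and miR-22-3p had 18927545. The miR-3600 count was at or above the miR-22-3p count in 33 of 33 libraries and equal to it in 1. The excess was 0 to 43 reads per library, or 0 to 8.13 per 100000 reads of miR-22-3p. The pair is therefore read as 1 signal. No source used here says how the authors counted a read that matches both names, and the values of both names are uncertain for that reason. Values below are those of miR-22-3p, and those of miR-3600 were the same to the digits printed for fold changes, errors and p-values.

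miR-22-3p was among the most abundant miRNAs in the blood of these cows. With miR-3600 left out, it ranked between the first and the 13th by count in its library. In SCE cows at day 25 its rank ran from 1 to 5 with a median of 2, and in healthy cows at day 25 from 4 to 9 with a median of 5. In SCE cows at day 45 it ran from 2 to 7 with a median of 4, and in healthy cows at day 45 from 3 to 13 with a median of 5.5. The ranks overlapped between statuses at both days.

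The share of all counts taken by miR-22-3p at day 25 was 7.66 ± 3.95% in SCE cows (SD, n = 11) and 2.31 ± 1.29% in healthy cows (SD, n = 5). Single SCE cows ran from 1.59 to 14% around a median of 7.06%. Healthy cows 1, 2, 4, 5 and 6 had 1.03, 2.97, 1.26, 4.17 and 2.12%. At day 45 the share was 5.07 ± 4.15% in SCE cows (SD, n = 11; lowest 1.38, median 3.35, highest 12.4%) and 3.54 ± 3.30% in healthy cows (SD, n = 6; lowest 0.494, median 2.68, highest 9.80%). A share is tied to all other miRNAs of the library, and with the duplicate miR-3600 row left out of the total the highest share became 16.3%. Wilson 95% intervals of single libraries were narrow, for instance 14.03 to 14.07% for SCE cow 17 at day 25. They cover counting error only, because reads after PCR without molecular identifiers are not independent molecules.

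After scaling by the trimmed mean of M-values (TMM), which sets libraries level on the bulk of their miRNAs, levels were taken as CPM, counts scaled to a common library size. At day 25 miR-22-3p averaged 54476 ± 18602 CPM in SCE cows (SD, n = 11) and 33272 ± 12584 CPM in healthy cows (SD, n = 5). In SCE cows the lowest was 31902 CPM in cow 10, the median 49282 and the highest 84207 in cow 17. Healthy cows 1, 2, 4, 5 and 6 had 26181, 41003, 14487, 40639 and 44049 CPM. SCE cows 7, 10, 13 and 14 lay within the healthy range, the other 7 of 11 exceeded every healthy cow, and healthy cows 1 and 4 lay below every SCE cow. Of these 7, SCE cow 8, stood at 44058 CPM, barely over healthy cow 6.

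This difference at day 25 did not pass the test. The log2 fold change of miR-22-3p was 0.67 with SE 0.36 and a 95% interval of -0.08 to 1.42, a ratio of 1.59 (edgeR quasi-likelihood p = 0.076, Benjamini-Hochberg adjusted p = 0.280 over 372 miRNAs). By p it ranked 101 of 372. The background was 0.269% of miRNAs called at an adjusted p under 0.05, or 1 of 372, and 20.2% with an unadjusted p under 0.05. miR-22-3p was in neither set. DESeq2 gave a log2 fold change of 0.64 with SE 0.31 (p = 0.0397, adjusted p = 0.210). By DESeq2, miR-22-3p was 1 of 109 miRNAs with an unadjusted p under 0.05. Of 523 miRNAs given an adjusted p there, 14 were called, and miR-22-3p was not among them.

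The call at day 25 depended on the scaling. With library totals alone the log2 fold change of miR-22-3p was 1.73 with SE 0.54 (edgeR adjusted p = 0.040). There, 9 of 11 SCE cows stood above every healthy cow. Under that scaling the median log2 fold change of all miRNAs tested was 0.88, against -0.05 with TMM, and all 48 miRNAs called were higher in SCE cows. Relative to that median, miR-22-3p stood 0.85 higher with library totals and 0.72 higher with TMM. The mean share of miR-486, a red blood cell miRNA and the most abundant name by its mean, was lower in SCE cows at day 25. It averaged 25.4 ± 25.1% of counts in SCE cows (SD, n = 11) and 50.3 ± 20.7% in healthy cows (SD, n = 5) at day 25. At day 25 the median share of the 12 red blood cell miRNAs together was also lower in SCE cows. That list includes miR-486, so this is not a separate observation. The list averaged 28.8% of counts in SCE cows and 53.0% in healthy cows, most of it miR-486. With TMM, 178 of all 372 miRNAs tested were higher in SCE cows and 194 lower. Of the 11 listed red blood cell miRNAs tested, 4 were higher and 7 lower. The part of these shares in the result was not tested. With the miR-486 row taken out and TMM scaling, the log2 fold change of miR-22-3p was 0.85 with SE 0.35 (edgeR p = 0.026, adjusted p = 0.195).

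**Figure D1:**
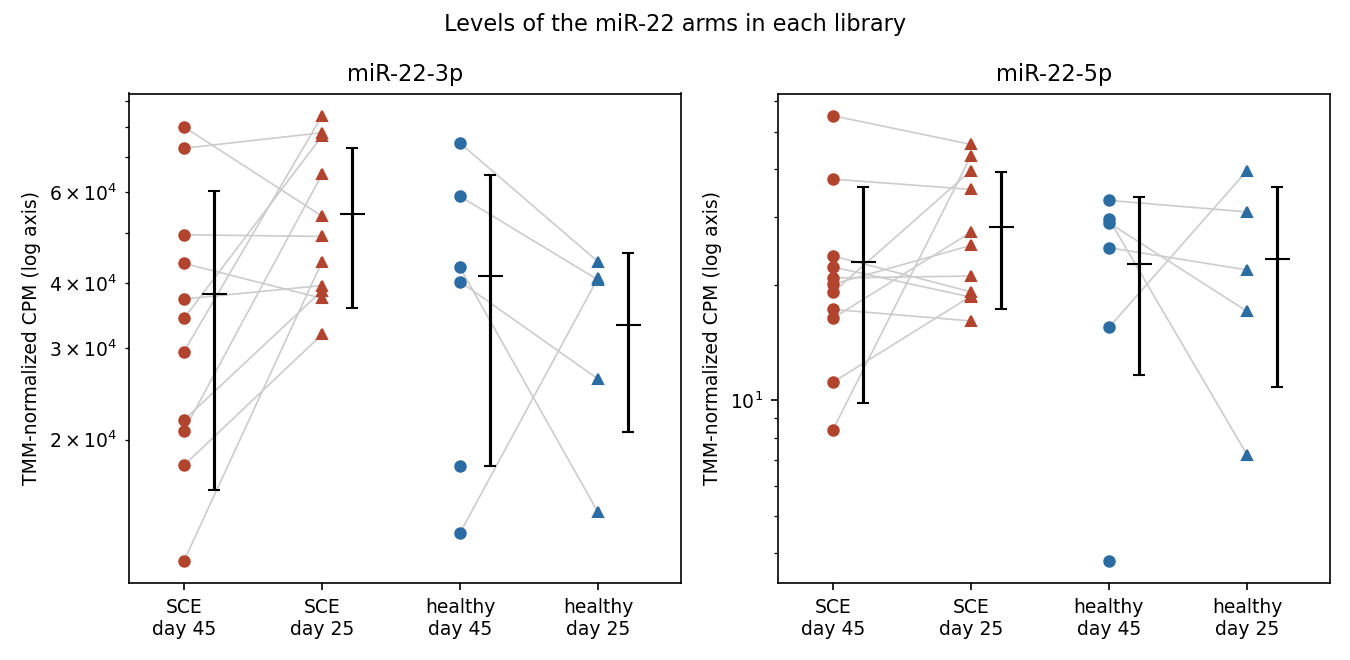
Levels of miR-22-3p (left) and miR-22-5p (right) in TMM-normalized CPM on log axes, 1 point per library, with grey lines joining the libraries of 1 cow and bars for the mean ± SD of each group (SCE day 45, n = 11; SCE day 25, n = 11; healthy day 45, n = 6; healthy day 25, n = 5). At day 25, 7 of 11 SCE cows lie above every healthy cow for miR-22-3p and 3 of 11 for miR-22-5p. At day 45 the statuses cover nearly the same range for miR-22-3p, while miR-22-5p runs from 8.38 to 55.0 CPM in SCE cows and from 3.82 to 33.1 in healthy cows.

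At day 45 the statuses could not be told apart by miR-22-3p. It averaged 38164 ± 22146 CPM in SCE cows (SD, n = 11) and 41301 ± 23503 CPM in healthy cows (SD, n = 6). SCE cows ran from 11676 CPM in cow 8 over a median of 34272 to 80146 in cow 9, and healthy cows from 13222 CPM in cow 2 over a median of 41639 to 74598 in cow 6. The groups overlapped over nearly their whole range, with 1 of 11 SCE cows above and 1 below every healthy cow. The log2 fold change was -0.07 with SE 0.44 and a 95% interval of -0.98 to 0.83 (edgeR adjusted p = 0.967). With library totals alone it was 0.52, where the median of all miRNAs tested was 0.71. The background at day 45 was 0% called, or 0 of 382, with 10.2% at an unadjusted p under 0.05 and 1 miRNA called by DESeq2.

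With the counts of each cow summed over both days, the log2 fold change of miR-22-3p was 0.30 with SE 0.32 and a 95% interval of -0.37 to 0.96 (edgeR adjusted p = 0.633 over 418 miRNAs). Healthy cow 3 entered with its day-45 library alone. Counts were summed without scaling, so the deeper library of a cow weighed more. Leaving out each cow in turn gave 0.17 to 0.50, lowest without cow 3 and highest without cow 6, both healthy. With library totals alone it was 1.04 (edgeR adjusted p = 0.072), where the median of all miRNAs was 0.77. The background over both days was 0.239% called and 16.5% with an unadjusted p under 0.05.

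Between the days, miR-22-3p was lower at day 45 than at day 25 in most SCE cows. The level at day 45 was higher in 3 of 11 SCE cows and lower in 8. The within-cow log2 difference averaged -0.66 ± 0.83 (SD, n = 11), from -1.92 in cow 8 to 0.57 in cow 9. In healthy cows the level was higher at day 45 in 4 of 5, with a mean log2 difference of 0.37 ± 1.19 (SD, n = 5), from -1.63 in cow 2 to 1.57 in cow 4.

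None of these differences between days passed the test. In SCE cows the log2 fold change, day 45 over day 25, was -0.62 with SE 0.32 and a 95% interval of -1.27 to 0.03 (edgeR p = 0.062, adjusted p = 0.705), ranking 25 of 346. With the cow as a block it was -0.73 with SE 0.29 (edgeR p = 0.021, adjusted p = 0.598). Other settings gave a smaller drop. It was -0.44 by DESeq2 (DESeq2 p = 0.144), -0.44 with RLE size factors (edgeR p = 0.164) and -0.47 without the miR-486 row (edgeR p = 0.153). The median log2 fold change of all miRNAs tested in SCE cows was -0.11 in the main fit. The background in SCE cows was 0% called by edgeR and 4.05% with an unadjusted p under 0.05. In healthy cows the log2 fold change was 0.26 with SE 0.50 and a 95% interval of -0.79 to 1.31 (edgeR p = 0.615), against 0% called and 2.9% with an unadjusted p under 0.05. The log2 fold change there was 0.011 without cow 6 and 0.58 without cow 2. The difference of the day effect, SCE minus healthy, was -0.83 with SE 0.57 and a 95% interval of -1.97 to 0.32 (edgeR p = 0.154, adjusted p = 0.988). There the background was 0% called and 1.72% with an unadjusted p under 0.05. With the cow as a block, over the 16 cows with both days, the difference was -1.03 with SE 0.59 (edgeR p = 0.095, adjusted p = 0.977). DESeq2 called no miRNA in these 3 comparisons.

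**Figure D2:**
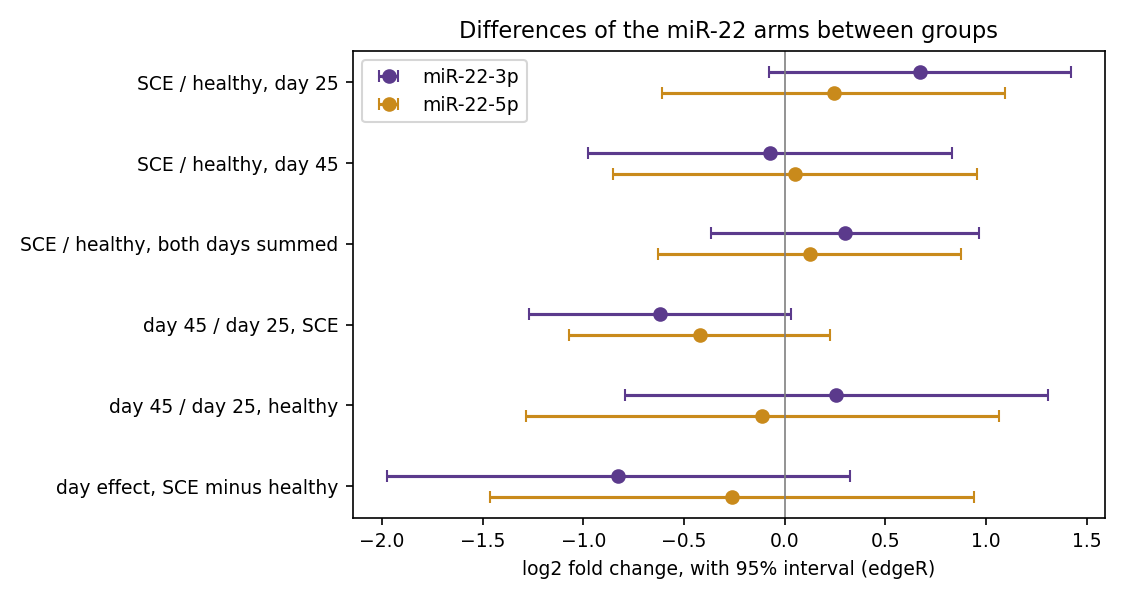
Log2 fold changes of miR-22-3p and miR-22-5p from edgeR with their 95% intervals, in the 6 comparisons of status and day. All 12 intervals include 0, and those of miR-22-3p between statuses at day 25 (-0.08 to 1.42) and between days in SCE cows (-1.27 to 0.03) only just reach it.

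The minor arm, miR-22-5p, was seen in every library but at a far lower level, with 10457 counts over the 33 libraries and 16 to 1432 per library. It ranked from 143 to 250 by count. At day 25 it averaged 28.2 ± 11.0 CPM in SCE cows (SD, n = 11) and 23.3 ± 12.5 CPM in healthy cows (SD, n = 5). SCE cows ran from 16.1 CPM in cow 12 over a median of 25.3 to 46.3 in cow 9, and healthy cows 1, 2, 4, 5 and 6 had 17, 39.5, 7.23, 30.9 and 21.8 CPM. The ranges overlapped, and every healthy cow was exceeded by 3 of 11 SCE cows, or 5 of 11 with library totals alone.

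At day 45 miR-22-5p averaged 22.9 ± 13.0 CPM in SCE cows (SD, n = 11) and 22.7 ± 11.0 CPM in healthy cows (SD, n = 6). The lowest, median and highest were 8.38 in cow 8, 20.0 and 55.0 in cow 9 among SCE cows, and 3.82 in cow 3, 27.0 and 33.1 in cow 5 among healthy cows. Again the ranges overlapped, and 2 of 11 SCE cows exceeded every healthy cow.

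The log2 fold change of miR-22-5p between statuses was 0.24 with SE 0.41 and a 95% interval of -0.61 to 1.10 at day 25 (edgeR adjusted p = 0.774). The value at day 25 was 0.036 without healthy cow 4 and 0.50 without healthy cow 2. The log2 fold change was 0.05 with SE 0.44 and a 95% interval of -0.85 to 0.96 at day 45 (edgeR adjusted p = 0.976), and 0.12 with SE 0.37 over both days (edgeR adjusted p = 0.896). At day 25 it was 1.10 with library totals alone (edgeR adjusted p = 0.138). Between days it was -0.42 with SE 0.32 in SCE cows (edgeR adjusted p = 0.751) and -0.11 with SE 0.56 in healthy cows (edgeR p = 0.847). With the cow as a block the value in healthy cows was 0.26, so its direction turned. Within cows, miR-22-5p was higher at day 45 in 5 of 11 SCE cows and in 4 of 5 healthy cows. The difference of its day effect, SCE minus healthy, was -0.26 with SE 0.59 (edgeR adjusted p = 0.988). With the cow as a block that difference was -0.67 with SE 0.59 (edgeR adjusted p = 0.977).

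The balance of the arms was taken within each library as miR-22-5p reads per 1000 reads of both arms, which does not depend on how libraries are scaled. Over all libraries the 5p arm gave 0.552 reads per 1000. At day 25 the balance was 0.586 ± 0.301 per 1000 in SCE cows (SD, n = 11) and 0.673 ± 0.196 per 1000 in healthy cows (SD, n = 5). At day 45 it was 0.651 ± 0.225 per 1000 in SCE cows (SD, n = 11) and 0.614 ± 0.336 per 1000 in healthy cows (SD, n = 6). The group means thus lay closer to each other than the spread between cows.

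Single cows were spread more unevenly than the means. SCE cows 12, 15, 16 and 17 had 0.248, 0.241, 0.245 and 0.325 per 1000 at day 25, and the other SCE cows had 0.481 to 1.06. These 4 cows had the 4 highest miR-22-3p levels of that group. Reads of miR-22-3p are part of the balance, so its level and the balance are not independent. The ratio was lower than in every healthy cow in 5 of 11 SCE cows and higher than in every healthy cow in 2. At day 45, cows 12, 15, 16 and 17 had 0.827, 0.648, 0.326 and 0.553 per 1000. Healthy cow 3 had the lowest value of all libraries, at 0.214 per 1000 with a Wilson 95% interval of 0.144 to 0.319 that covers counting error only. SCE cow 10 at day 45, with 16 reads of miR-22-5p, had 1.16 per 1000 with an interval of 0.716 to 1.89.

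On the log2 scale, with a pseudocount of 0.5 reads, the arm ratio averaged -10.93 in SCE cows and -10.58 in healthy cows at day 25, a difference of -0.35 (exact permutation p = 0.381). At day 45 it averaged -10.65 in SCE cows and -10.86 in healthy cows, a difference of 0.21 (exact permutation p = 0.535). Day 45 minus day 25 was 0.28 in SCE cows, higher in 7 of 11 (exact permutation p = 0.319), and -0.03 in healthy cows, higher in 3 of 5 (exact permutation p = 0.938, the smallest possible being 0.0625). The day effect differed by 0.30, SCE minus healthy (exact permutation p = 0.484). All tests were two-sided, and the adjusted p over the 5 was 0.669 for each but that in healthy cows, at 0.938.

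**Figure D3:**
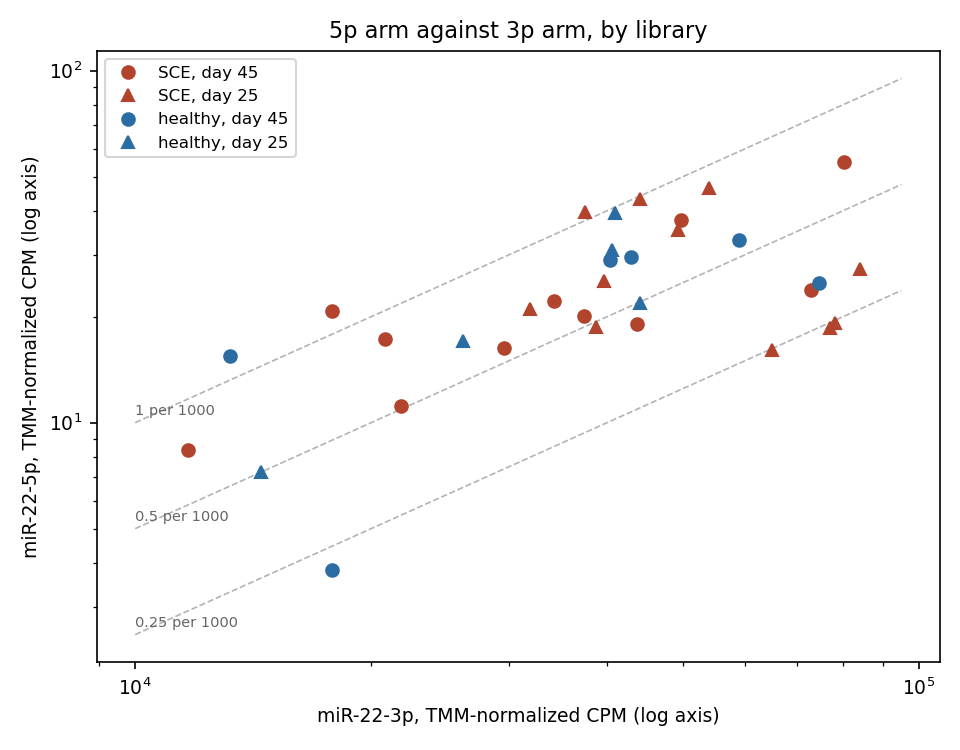
miR-22-5p against miR-22-3p in each of the 33 libraries, both in TMM-normalized CPM on log axes, with dashed lines at 1, 0.5 and 0.25 reads of the 5p arm per 1000 of the 3p arm. Most libraries lie between 0.25 and 1 per 1000, and the libraries near the lowest line are 4 SCE libraries at day 25 (0.241 to 0.325), SCE cow 16 at day 45 (0.326) and healthy cows 6 (0.334) and 3 (0.215) at day 45.

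The arms followed each other in part. Over the 33 libraries the Spearman correlation of miR-22-5p with miR-22-3p was 0.58 on log2 CPM. It was -0.20 over the 11 SCE libraries of day 25 and 0.77 over the 11 SCE libraries of day 45. These values are descriptions over libraries that share cows and scaling. By likeness to miR-22-3p, the other arm ranked 29 of 404 miRNAs.

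The 5 names most like miR-22-3p were miR-2483-5p with a Spearman correlation of 0.83, miR-2316 with 0.81, miR-130a with 0.78, miR-27b with 0.74 and miR-186 with 0.73. The first pair was scarce, at a mean of 2.26 and 2.15 CPM of library totals. miR-130a stood at 246, miR-27b at 23140 and miR-186 at 12666 CPM of library totals. The lowest correlations were -0.69 for miR-148b, -0.63 for miR-93 and -0.62 for miR-140, and the median over the 404 names was 0.15. Most like miR-22-5p were miR-215 with 0.77, miR-502a with 0.75 and miR-216a with 0.75. miR-215 stood at 8021 CPM of library totals, while miR-502a at 2.38 and miR-216a at 0.801 were scarce.

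The level of a cow at day 45 was set against its level at day 25. Over the 16 cows with both days, Pearson's r of log2 CPM was 0.07 for miR-22-3p (permutation p = 0.808, Spearman's rho 0.09, permutation p = 0.747) and -0.04 for miR-22-5p (permutation p = 0.872, rho -0.05, permutation p = 0.866). For the arm ratio r was 0.29 (permutation p = 0.282, rho 0.30, permutation p = 0.254). Without the 2 cows farthest from the median at day 25, r was 0.23, -0.18 and 0.12 for miR-22-3p, miR-22-5p and the arm ratio. Within the 11 SCE cows r was 0.33 for miR-22-3p, 0.24 for miR-22-5p and 0.20 for the arm ratio, and the 5 healthy cows were too few. The adjusted p over the family of 15 relations was at least 0.544 for these 3.

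The level of miR-22-3p was negatively related to the share of miR-486, a relation that did not pass adjustment. At day 25 Pearson's r of its log2 CPM with the miR-486 share was -0.52 over 16 cows (permutation p = 0.038, adjusted p = 0.247), with Spearman's rho -0.54 (permutation p = 0.032, adjusted p = 0.240). At day 45 r was -0.58 over 17 cows (permutation p = 0.016, adjusted p = 0.239), with rho -0.59 (permutation p = 0.013, adjusted p = 0.200). The adjustment was over 15 relations. Within SCE cows r was -0.68 at day 25 and -0.64 at day 45, within the 6 healthy cows of day 45 it was -0.65, and the 5 healthy cows of day 25 were too few. Without the 2 cows farthest from the median share, r was -0.45 at day 25 and -0.37 at day 45. Both measures come from the counts of the same library, so they are not independent.

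Another measure of red blood cell RNA, miR-451 over miR-23a on the log2 scale, gave other values. Its r with miR-22-3p was -0.27 at day 25 (permutation p = 0.319, rho -0.38, permutation p = 0.15) and 0.10 at day 45 (permutation p = 0.701, rho 0.02, permutation p = 0.925). Within SCE cows it was -0.65 at day 25 and 0.07 at day 45, and without the 2 farthest cows it was -0.14 at day 25 and 0.28 at day 45. With miR-22-5p the ratio had r of 0.49 at day 25 (permutation p = 0.049, adjusted p = 0.247) with rho 0.45 (permutation p = 0.080), and r of 0.29 at day 45 (permutation p = 0.266) with rho 0.37 (permutation p = 0.149). Without the 2 farthest cows these r were 0.67 and 0.56, and within SCE cows 0.63 and 0.13. The share of miR-486 had r with miR-22-5p of 0.29 at day 25 (permutation p = 0.283, rho 0.36, permutation p = 0.177) and -0.21 at day 45 (permutation p = 0.424, rho -0.26, permutation p = 0.318). Against the log2 total count, r of either arm at either day ran from 0.11 to 0.20 and rho from 0.07 to 0.24, with permutation p of at least 0.358. Within statuses the spread was wider. For miR-22-3p, r with the total was 0.59 in SCE cows at day 25, and at day 45 it was 0.16 in SCE cows and 0.36 in healthy cows. For miR-22-5p it was 0.21 in SCE cows at day 25, and at day 45 it was -0.11 in SCE cows and 0.78 in the 6 healthy cows. No p was computed within statuses.

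**Figure D4:**
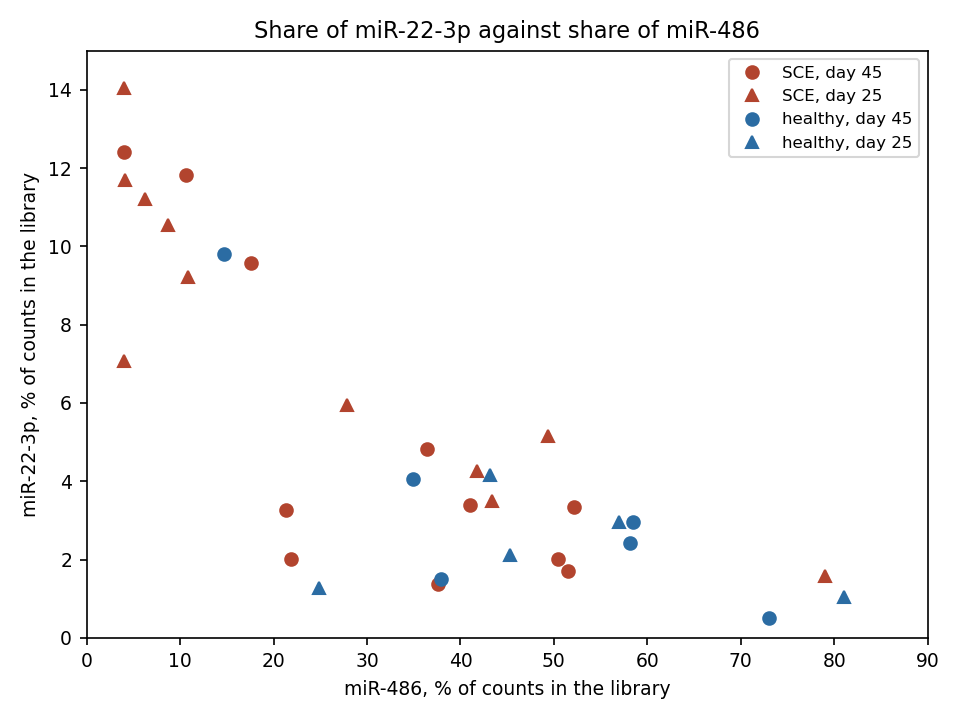
Share of counts taken by miR-22-3p against the share taken by miR-486 in each of the 33 libraries, both in percent of the library total. The 9 libraries with miR-22-3p above 9% of counts have miR-486 at no more than 17.5%, and shares of 1 library cannot vary freely of each other.

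Other markers of blood and liver were also present at day 25. The 10 platelet miRNAs took 3.35 to 32.7% of counts in SCE cows (median 17%) and 3.15 to 40.9% in healthy cows (median 8.99%). The 6 of neutrophils and monocytes took 0.523 to 4.90% in SCE cows (median 3.73%) and 0.499 to 3.82% in healthy cows (median 0.943%). The 5 of liver took 1.84 to 11.5% in SCE cows (median 3.47%) and 1.54 to 8.04% in healthy cows (median 4.58%). The ranges overlapped for each list. The median shares of the platelet list and of the neutrophil and monocyte list were higher in SCE cows, as was that of miR-22-3p. These lists share a name, and shares depend on miR-486. The mean platelet share was 17.2% in SCE cows and 17.1% in healthy cows. With TMM, 4 of 10 platelet miRNAs were higher in SCE cows and 6 lower, with a median log2 fold change of -0.29. Over all 372 miRNAs tested, 178 were higher and 194 lower, with a median of -0.05. In the neutrophil and monocyte list, 4 of 6 were higher and 2 lower, with a median of 0.12. The part of these cells in the level of miR-22 was not tested.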

How the data were processed

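The authors deposited 1 file of whole-number counts per library, with 1 count per mature bovine miRNA. Each library took 10 to 20 ng of small RNA and 13 or 16 PCR cycles, per the labels' protocols. The submitters' processing notes name bcl2fastq 2.17.1.14, DESeq2 and the genome build UMD 3.1. No source used here names the aligner or the counting tool, or says how it handled reads that match several miRNAs. The deposited counts show no normalization.

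Rows were joined by name without the species prefix. Of 34 libraries, 33 were used. The main test was the edgeR 4.0.16 quasi-likelihood F test in R 4.3.3, with TMM scaling, filterByExpr, and Benjamini-Hochberg adjustment over all miRNAs tested, two-sided, at an adjusted p of 0.05. Log2 CPM used a prior count of 2. DESeq2 1.42.0 was an alternative. The fits were tested on simulated data. Arm ratios were tested by exact permutation, and relations by permutation with 100000 resamples in numpy 2.4.6, with ranks from scipy 1.17.1. Alternatives were other scalings, no filter, leaving out the miR-486 or miR-3600 row, 1 fit over all libraries, another pseudocount, leaving out each cow, and a cow block.

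The labels give the same animal number at both days, so the cow pairs the libraries. In the 16 cows with both days, the same-cow correlation of deviations from group means had a median of 0.25 (-0.25 to 0.81) and exceeded 0.1 in 11. The p-values between statuses measure the spread between cows. The main fits between days had no term for the cow, so both libraries of 1 cow were treated as independent. With the cow as a block, and in the arm ratio tests between days, p-values rest on within-cow differences. Names printed are the 3 members, the 5 most and 3 least like miR-22-3p, the 3 most like miR-22-5p, and miR-486, miR-451 and miR-23a. Members and lists were chosen with earlier results of these data known. RefSeq symbols matched for 2 of 2 hairpins, on another assembly than the files' build, so none of its coordinates are given. A list of other miRNAs is not reported here.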

Additional observations from a re-analysis of the deposited data

How the results depend on the processing

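With library totals alone, miR-22-3p and miR-3600 at day 25 passed the test with log2 fold changes of 1.73 each, their mean levels in SCE cows at day 25 were 76593 and 76595 CPM, their status values at day 45 turned to 0.52 each, and miR-22-5p between days in healthy cows turned to 0.022. Without the miR-486 row, miR-22-5p at day 45 turned to -0.015. The main fits kept both the miR-22-3p and the miR-3600 row. Without the miR-3600 row, the log2 fold change of miR-22-3p at day 25 was 0.77 with SE 0.38 (edgeR adjusted p = 0.243). In that setting it was -0.015 between statuses at day 45 and -0.56 between days in SCE cows. The replicate block left out healthy cow 3, which had 1 library, and changed no call of the 3 names. With it, miR-22-5p between days in healthy cows turned to 0.26. Counts of miRNAs called at day 25 were 1 by edgeR with TMM, 14 by DESeq2, 4 with RLE size factors, 48 with library totals, 4 without the miR-486 row, 6 with no filter, 4 without the miR-3600 row and 2 with all 33 libraries in 1 fit. At day 45 they were 0, with 1 by DESeq2 and 1 with library totals. Over both days they were 1, with 15 by DESeq2, 64 with library totals, 2 without the miR-486 row and 2 with no filter. For the difference of day effects they were 0, and 1 with no filter. The cause of these shifts was not tested. When each cow was left out in turn, calls ran from 0 to 7 at day 25 and from 0 to 10 over both days. Log2 fold changes of miR-22-3p and miR-3600 at day 45 ran from -0.23 to 0.17, and those of miR-22-5p from -0.12 to 0.21 at day 45, -0.089 to 0.265 over both days, -0.38 to 0.32 between days in healthy cows, -0.53 to -0.21 between days in SCE cows, 0.036 to 0.50 at day 25 and -0.722 to 0.042 for the difference of day effects. miR-22-3p at day 25 ran from 0.50 to 0.83 (edgeR adjusted p 0.179 to 0.40), over both days from 0.17 to 0.50, between days from -0.71 to -0.49 in SCE cows and 0.011 to 0.58 in healthy cows, and for the difference of day effects from -1.18 to -0.64. The arm ratio ran from -0.050 to 0.435 between statuses at day 45 and from -0.15 to 0.11 between days in healthy cows, and from -0.46 to -0.22 at day 25, 0.13 to 0.43 between days in SCE cows and 0.16 to 0.46 for the difference of day effects. In all, 336 of the 375 log2 fold changes under alternatives kept direction and side of the threshold. This tally counts miR-3600 apart from miR-22-3p. No main adjusted p of the 3 names was under 0.280, so keeping the side of the threshold says little. Depth limits miR-22-5p most, at 16 to 1432 reads per library.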
